A study of Mus musculus with 4 samples.

Results

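Txnip and Arrdc4 are the 2 genes described here, of 32285 genes in the deposited tables, and they were followed through cell classes of hepatic CD4+ T cell preparations. Both rows were taken by gene symbol, Arrdc4 because its level in regulatory T cells differed so widely between the genotypes, and Txnip as the other α-arrestin known to respond to glucose. Arrdc4's ratio in regulatory T cells is therefore a description, and the values in the other classes come from the same libraries.

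The cells came from male WT mice and from male mice lacking Nr4a1 and Nr4a2 in T cells (Nr4a1 fl/fl Nr4a2 fl/fl Cd4Cre, called dKO), and both groups had been fed a choline-deficient high-fat diet (CD, 60 kcal% fat and 0.1% methionine) for 8 weeks, which induces steatohepatitis. The Cd4-driven Cre acts from the CD4-expressing thymocyte stage on, so it also deletes in CD8+ T cells. The WT genotype is given by that name alone, and strain and age of these mice are not given in the sources used here. Liver CD4+ cells were sorted and pooled from 2 mice per group, and 1 library per genotype was made for 5′ single-cell RNA sequencing with matching T cell receptor (TCR) sequencing. With 1 library per genotype no test between genotypes was possible. All intervals below are exact 95% intervals that cover counting error only, not the spread between mice, and any limit given for a count of 0 is that of 3 counts.

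Txnip and Arrdc4 encode α-arrestins, membrane adaptors that recruit HECT-type ubiquitin ligases to transporters and receptors. Both genes are textbook targets of the glucose-sensing factors MondoA (Mlxip) and ChREBP (Mlxipl), which work with their partner Mlx, and both proteins lower glucose uptake by removing glucose transporters from the cell surface. TXNIP also binds and inhibits thioredoxin. In T cells, Txnip mRNA is known to be abundant at rest and to fall when cells are activated and begin to divide.

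In the mouse assembly GRCm38 (the mm10 of the files), Txnip (ENSMUSG00000038393) occupies chr3:96557957-96561883 on the plus strand and Arrdc4 (ENSMUSG00000042659) occupies chr7:68736995-68749241 on the minus strand, in the GENCODE annotation. The 250 bases upstream of each RefSeq start (GRCm38.p6) are shown because the pair is grouped by its known response to glucose. The Txnip window is chr3:96557707-96557956 on the plus strand and the Arrdc4 window is chr7:68749239-68749488 on the minus strand. Capitals mark 3 motifs searched on both strands, the E-box CACGTG, a carbohydrate response element (ChoRE) written as a pair of CACGNG boxes with 5 bases between them, and the CCAAT box, which reads ATTGG on the opposite strand.
Txnip upstream: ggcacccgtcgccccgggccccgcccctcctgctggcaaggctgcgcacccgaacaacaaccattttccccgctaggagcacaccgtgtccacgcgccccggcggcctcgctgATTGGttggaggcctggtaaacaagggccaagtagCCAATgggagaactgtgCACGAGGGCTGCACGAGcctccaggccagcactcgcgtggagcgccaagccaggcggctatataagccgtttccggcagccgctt
Arrdc4 upstream: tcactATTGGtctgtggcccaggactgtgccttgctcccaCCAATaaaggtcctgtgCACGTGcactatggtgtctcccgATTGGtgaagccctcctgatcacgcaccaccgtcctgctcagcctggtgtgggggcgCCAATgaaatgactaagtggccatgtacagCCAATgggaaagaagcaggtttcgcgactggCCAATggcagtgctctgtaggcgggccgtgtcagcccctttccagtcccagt

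The Txnip window held 1 ChoRE, CACGAGGGCTGCACGAG, from 85 to 69 bases upstream of the start, a motif found in 14 of 27025 promoter windows (0.0518%). The Arrdc4 window held no match to these ChoRE letters and 1 E-box from 193 to 188 bases upstream, a motif found in 6.05% of windows. CCAAT boxes numbered 2 in Txnip and 6 in Arrdc4, and at least 6 occurred in 0.0629% of windows. A FOXO site (GTAAACA, in 3.09% of windows) was present once in Txnip, and neither window held the Nr4a monomer site AAAGGTCA, which 1.31% of windows hold. These are letter matches in a short window and no binding was measured.

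The 2 libraries held 10556 (labelled WT) and 17462 (labelled dKO) cells after filtering, with medians of 1679 and 1685 unique molecular identifiers (UMIs) per cell. By its label the dKO library lacks both targeted genes in T cells, yet both stood higher there over all cells. Nr4a1 stood at 725 (714 to 736) CPM, the UMIs of a gene per 1000000 UMIs counted, in the library labelled WT and at 1659 (1646 to 1672) CPM in the library labelled dKO, and Nr4a2 at 183 and 306 CPM. Nr4a1 differed in the same direction outside the T cells, at 610 and 1327 CPM in plasmacytoid dendritic cell-like cells, a class described below. Counts from the 5′ end need not lie in the deleted part of either gene, so the libraries are named by their labels throughout. Cd4, the sorted marker, also stood apart, at 57.4 to 324 CPM in the T cell classes of the library labelled WT and at 266 to 1344 CPM in those of the library labelled dKO. The libraries shared 245 cell barcodes.

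Marker genes assigned 9649 and 16434 cells to 1 of 11 classes each, of which 8 were T cells: Foxp3+ T cells (regulatory T cells, Tregs), cycling, Il17+, Ifng+, naive-like, invariant NKT by receptor, droplets low in ribosomal mRNA, and the remaining T cells. The other 3 were plasmacytoid dendritic cell-like (pDC-like), myeloid-like and innate type 17-like cells. The Treg gate needed a Foxp3 UMI, and the cells it took also held Ikzf2 and Ctla4, at 860 and 1366 CPM in the library labelled WT and at 1114 and 2299 CPM in the library labelled dKO. Cd8a was at 0 in both.

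In Tregs, Arrdc4 was low in the library labelled WT and well detected in the library labelled dKO, while Txnip was well detected in both. Arrdc4 reached 7.82 (3.90 to 14.0) CPM, or 11 UMIs in 478 cells, in Tregs labelled WT. It reached 78.9 (72.4 to 85.8) CPM, or 552 UMIs in 3301 cells, in Tregs labelled dKO. The intervals lay far apart, at a log2 ratio of 3.33 (2.48 to 4.35), or 10.1-fold. This value chose the gene: it ranked 5 from the top of 3717 genes with at least 50 CPM in a library, of which 2.85% were at least 2-fold higher in the library labelled dKO. The genes just above it were Gas2 (3.50) and Myo1d (3.39) and those just below were Tmem158 (3.21) and Lag3 (3.12), on the same log2 scale.

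Txnip stood at 137 (119 to 158) CPM in Tregs labelled WT and at 166 (157 to 176) CPM in Tregs labelled dKO. These intervals touched, and the log2 ratio was 0.28 (0.06 to 0.51), rank 870 of the same 3717 genes. Its sign did not hold: it was -0.051 (-0.34 to 0.25) without Tregs holding any UMI of the pDC or myeloid gate genes, and -0.24 (-0.59 to 0.12) among Tregs with a TCR clonotype. For Arrdc4 the same subsets gave 3.21 (2.07 to 4.67) and 2.73 (1.57 to 4.21). Without Tregs that pass the cycling gate, the Txnip ratio was 0.11 (-0.13 to 0.35) and the Arrdc4 ratio was 3.54 (2.55 to 4.76).

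UMIs of other cell types were present in the Treg gate. The 6 pDC gate genes summed to 14.2 CPM in Tregs labelled WT and 69.0 CPM in Tregs labelled dKO, and the 10 myeloid gate genes to 222 and 316 CPM, with Lyz1 at 0 in the library labelled WT. Arrdc4 stood at 21.1 and 29.9 CPM in the pDC-like and at 14.4 and 43.4 CPM in the myeloid-like cells themselves. The Arrdc4 ratio without Tregs holding such UMIs, given above, was 3.21.

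T cells outside the Treg gate were read next, class by class, and these classes can hold Tregs whose Foxp3 was not captured. In the remaining T cells, which carry no Foxp3, Il17 or Ifng UMI, Arrdc4 stood at 2.71 (1.44 to 4.63) CPM in the library labelled WT and at 75.1 (69.3 to 81.2) CPM in the library labelled dKO. That is a log2 ratio of 4.79 (4.01 to 5.71), or 27.7-fold, rank 4 of 3592 genes, where 4.12% of genes were at least 2-fold higher. The class did not hold like cells in the libraries: of 7 Treg marker genes named further on, 4147 of its 6054 cells labelled dKO held 3 or more, against 550 of 3076 labelled WT, and Ikzf2 and Ctla4 stood at 823 and 1666 CPM against 169 and 355 CPM. In its cells with none of these markers Arrdc4 had 2 UMIs in either library, 3.68 (0.45 to 13.3) CPM labelled dKO and 1.46 (0.18 to 5.26) CPM labelled WT, so no difference was shown there. From 2 markers on, the intervals of the libraries lay apart in cells alike in marker number, at 26.3 (17.3 to 38.2) against 3.23 (0.67 to 9.45) CPM with 2 markers and at 115 (104 to 127) CPM against 0 UMIs (3 UMIs would be 12.3 CPM) with 5 or more. Cells alike in marker number need not be like cells. Tnfrsf9, among the 7, stood at 119 CPM labelled WT and 798 CPM labelled dKO in this class. The Arrdc4 level of the class in the library labelled dKO did not differ from that of Tregs beyond counting error (log2 ratio of Tregs over these cells 0.07, -0.10 to 0.24). By contrast, Tregs labelled WT held more Arrdc4 than the remaining T cells of their library (1.53, 0.23 to 2.80).

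Ifng+ T cells, the type 1 helper-like class, held 2.35 (1.02 to 4.64) and 31.1 (22.1 to 42.5) CPM of Arrdc4, a log2 ratio of 3.73 (2.61 to 5.03). Naive-like cells, gated on genes such as Ccr7 and Lef1, held 2.12 (0.97 to 4.02) and 25.0 (18.6 to 32.8) CPM, a log2 ratio of 3.56 (2.53 to 4.77). Among genes with at least 20 CPM, 2.38% and 1.64% were at least 2-fold higher in these classes. The intervals of the libraries lay apart in both classes as gated. Of the 39 Arrdc4 UMIs of Ifng+ cells labelled dKO, 20 came from cells with 5 or more Treg markers. Their cells with no marker held 0 UMIs and those with 1 marker 1 UMI (5.04 CPM, 0.13 to 28.1), against 4.35 and 0 CPM labelled WT, with overlapping intervals. At 5 or more markers Ifng+ cells held 72.9 (44.5 to 113) CPM labelled dKO and 0 UMIs (3 UMIs would be 10.9 CPM) labelled WT. Naive-like cells with no marker held 16.1 (7.36 to 30.6) CPM labelled dKO and 1.63 (0.34 to 4.76) CPM labelled WT, and those with 5 or more 69.8 (44.3 to 105) and 5.27 (0.13 to 29.4) CPM, with intervals that lay apart. At 1 to 4 markers the intervals of naive-like cells overlapped, and at 3 the level was the lower one in the library labelled dKO, with 1 UMI against 4.

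Small classes held few Arrdc4 UMIs. Il17+ T cells held no Arrdc4 UMI of 367331 in the library labelled WT and 9 UMIs, 14.9 (6.83 to 28.3) CPM, in the library labelled dKO. That is 1.83-fold the level of 3 UMIs in the empty library, but the exact intervals of the libraries overlapped. Of these 9 UMIs, 7 came from the 38 cells with 5 or more Treg markers, and the library labelled WT held 7 such cells. The low-ribosomal droplets held 0 and 12 UMIs, 7.28-fold by the same floor, with exact intervals that lay apart. These droplets also differed in Treg genes (Foxp3 at 62.5 and 388 CPM, Ikzf2 at 850 and 4575 CPM, Ctla4 at 557 and 2910 CPM) and in depth (medians of 1478 and 845.5 UMIs). Their part in the difference was not tested. Invariant NKT cells held 0 and 2 UMIs in 50 and 56 cells, too few for a fold.

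Cycling T cells held little Arrdc4 in either library. These cells, outside the Treg gate and marked by genes such as Mki67 and Top2a, held 3 Arrdc4 UMIs, 1.43 (0.30 to 4.19) CPM, in the library labelled WT and 4 UMIs, 2.96 (0.81 to 7.59) CPM, in the library labelled dKO, although they were the most deeply read class (medians of 3060.5 and 4238 UMIs). The log2 ratio was 1.05 (-1.51 to 3.82), an interval that takes in the ratios of Tregs, Ifng+ and naive-like cells. Without thinning, 1.38% of the cycling cells labelled dKO held an Arrdc4 UMI, against 13.3% of Tregs of that library. Free RNA reaches every droplet of a library, and its part in these values was not tested.

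**Figure D1:**
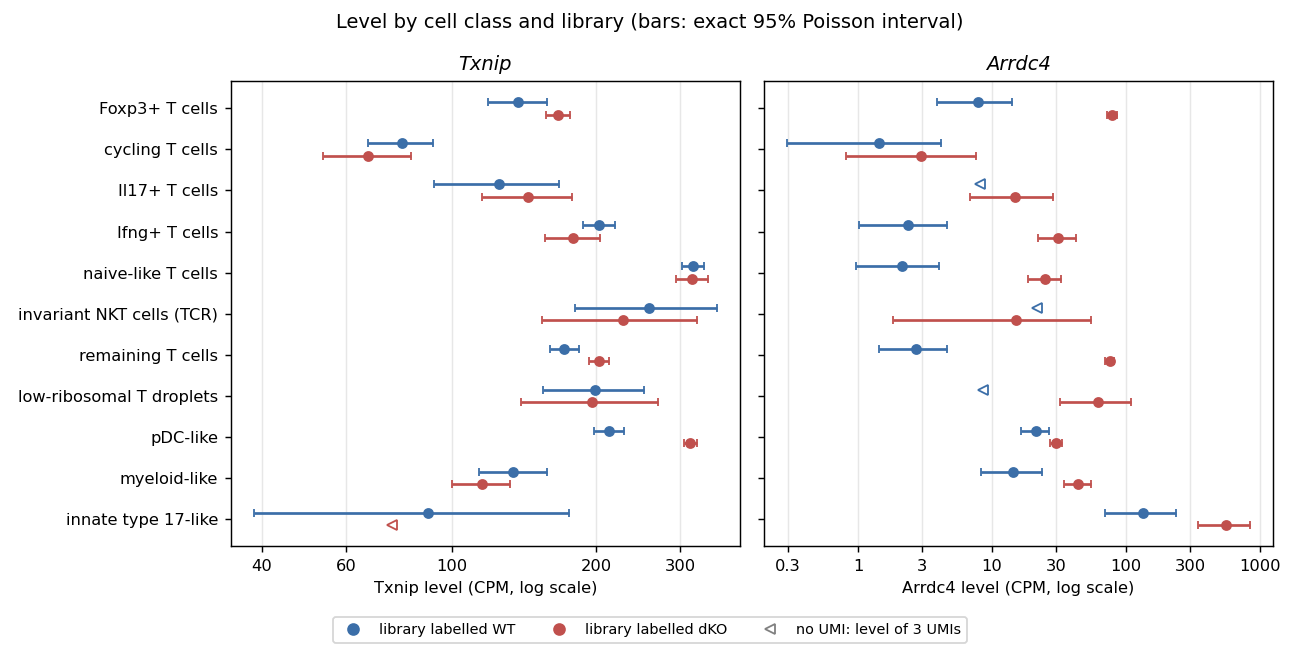
Levels of Txnip (left) and Arrdc4 (right) in CPM on log axes for the 11 cell classes, with blue points for the library labelled WT and red points for the library labelled dKO. Bars are exact 95% Poisson intervals and open triangles mark classes without a UMI, drawn at the level of 3 UMIs. Apart from pDC-like cells (213 and 315 CPM), Txnip points of a class lie close together, from 66.7 CPM in cycling cells to 319 CPM in naive-like cells, whereas Arrdc4 points lie apart in Tregs (7.82 and 78.9 CPM) and in the remaining T cells (2.71 and 75.1 CPM).

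In the order of its levels, Arrdc4 in the library labelled WT differed beyond counting error between innate type 17-like and pDC-like cells and between Tregs and the remaining T cells. Among classes labelled dKO it differed between innate type 17-like cells and Tregs and between Il17+ and cycling cells. No other neighbours that could be compared differed beyond it.

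Txnip followed another order. It was highest in naive-like cells, at 319 (303 to 337) CPM in the library labelled WT and 318 (294 to 343) CPM in the library labelled dKO. It was lowest among T cells in cycling cells, at 78.3 (66.8 to 91.2) and 66.7 (53.6 to 82.0) CPM. Both extremes of the T cell classes were thus shared by the libraries, with log2 ratios of -0.01 (-0.14 to 0.13) and -0.23 (-0.62 to 0.15). The top place was not settled beyond counting error. Naive-like over invariant NKT cells labelled WT gave 0.31 (-0.17 to 0.83), and naive-like over pDC-like cells labelled dKO gave 0.02 (-0.11 to 0.14).

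Between these extremes lay invariant NKT cells at 258 and 228 CPM, Ifng+ cells at 203 and 179 CPM, low-ribosomal droplets at 199 and 196 CPM and Il17+ cells at 125 and 144 CPM, with overlapping intervals of the libraries in each. The remaining T cells, at 172 (160 to 184) and 203 (193 to 212) CPM, were the T cell class whose intervals lay apart, at a log2 ratio of 0.24 (0.12 to 0.36). Of the neighbours in order of level, only the remaining T cells and Tregs differed beyond counting error in the library labelled WT (0.32, 0.09 to 0.56), and only myeloid-like and cycling cells in the library labelled dKO (0.79, 0.42 to 1.16). Over all T cells, Txnip stood at 201 (194 to 208) and 190 (184 to 196) CPM, a log2 ratio of -0.082 (-0.15 to -0.016), whose sign is opposite to that in Tregs. The naive-like class, high in Txnip, held 1785 of 7703 T cells labelled WT and 1109 of 12051 labelled dKO.

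Outside the T cells, both genes were higher by CPM in pDC-like cells of the library labelled dKO. In pDC-like cells Txnip stood at 213 (198 to 229) and 315 (305 to 325) CPM, a log2 ratio of 0.56 (0.45 to 0.68). That was rank 112 of 3467 genes, of which 0.836% were at least 2-fold higher. Arrdc4 stood there at 21.1 (16.5 to 26.6) and 29.9 (26.9 to 33.1) CPM, a log2 ratio of 0.50 (0.14 to 0.89). In cells thinned to 2000 UMIs, read below, its share of cells did not differ beyond counting error (5.49% and 5.65%). Among genes of at least 20 CPM, 1.04% were at least 2-fold higher in this class. Depth differed too, with medians of 1561.5 and 3004 UMIs per cell. So did Treg genes in this class, with Foxp3 at 6.15 and 23.4 CPM, Ikzf2 at 53.6 and 109 CPM and Ctla4 at 34.6 and 146 CPM, while Cd3e stood at 92.6 and 90.1 CPM. The part of depth and of Treg RNA in these differences was not tested.

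Myeloid-like cells held 14.4 (8.24 to 23.4) and 43.4 (34.3 to 54.2) CPM of Arrdc4, a log2 ratio of 1.59 (0.80 to 2.47), and among genes of at least 20 CPM 3.66% were at least 2-fold higher. Their Txnip stood at 134 (113 to 158) and 115 (100 to 132) CPM. Cd3e, a T cell gene, was present in this class at 425 and 338 CPM, so it held T cell RNA. Treg genes stood higher there in the library labelled dKO, with Foxp3 at 35.1 and 82.3 CPM, Ikzf2 at 106 and 257 CPM and Ctla4 at 195 and 522 CPM. The part of this RNA in the Arrdc4 difference was not tested.

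The highest Arrdc4 level of any class was in innate type 17-like cells, which held no Cd3 UMI or TCR contig and at least 2 genes of a short type 17 list with members such as Il22 and Il23r. There Arrdc4 stood at 134 (69.1 to 234) CPM, 12 UMIs in 39 cells, in the library labelled WT and at 549 (344 to 832) CPM, 22 UMIs in 23 cells, in the library labelled dKO. The intervals did not overlap, at a log2 ratio of 2.04 (0.96 to 3.19), where 6.03% of 1177 genes were at least 2-fold higher. The UMIs lay in 10 cells of either library, with up to 6 in a cell labelled dKO. Intervals on UMIs take no account of such clustering. By share of cells thinned to 1000 UMIs the intervals overlapped, at 11.1% (3.11 to 26.1) labelled WT and 31.8% (13.9 to 54.9) labelled dKO. When Cd3 UMIs were allowed, the gate took 82 and 80 cells and Arrdc4 stood at 65.7 and 165 CPM. The stricter cells were also low in Txnip, with 8 UMIs, 89.1 (38.5 to 176) CPM, and 0 UMIs of 40040, where 3 UMIs would be 74.9 CPM.

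**Figure D2:**
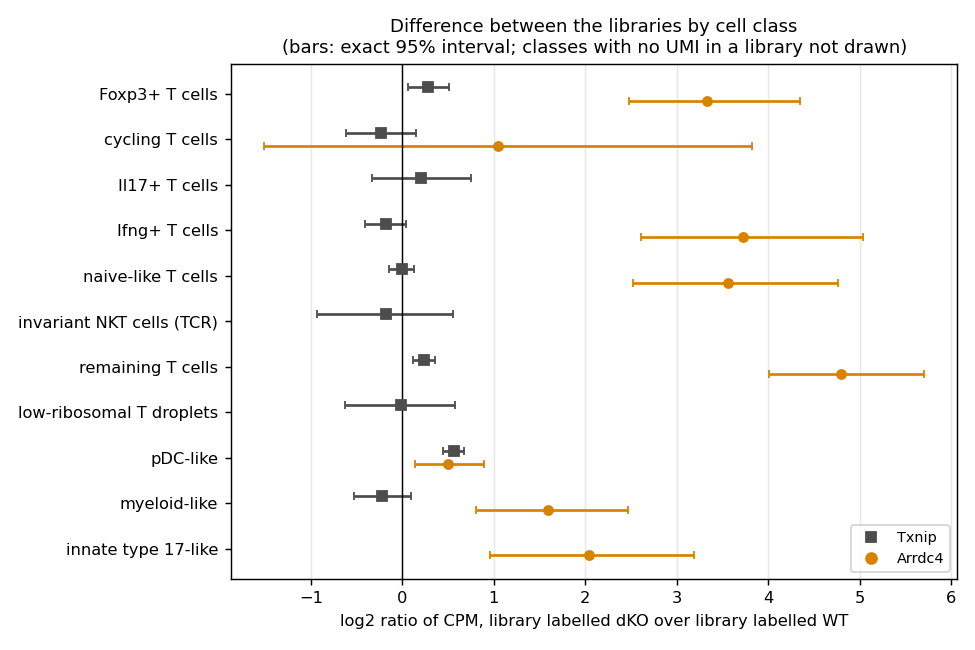
Log2 ratio of CPM, library labelled dKO over library labelled WT, for Txnip (squares) and Arrdc4 (circles) in each cell class with exact 95% intervals. Classes where a library had no UMI of the gene are left out. Txnip lies between -0.23 and 0.56, and Arrdc4 between 0.50 in pDC-like cells and 4.79 in the remaining T cells.

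Shares of cells with a UMI were compared after thinning each cell to 2000 UMIs. Arrdc4 was then detected in 1.14% (0.23 to 3.28) of 264 Tregs labelled WT and in 12.2% (10.4 to 14.1) of 1250 Tregs labelled dKO, against 1.88% and 13.3% without thinning. Cycling T cells, thinned alike, gave 0 of 369 cells (3 cells would be 0.813%) and 0.382% of 262. Thinning left out 214 and 2051 shallower Tregs.

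The remaining T cells gave 0.148% of 677 and 8.78% of 820, with intervals that lay apart. Txnip was detected in 21.2% (16.4 to 26.6) and 22.6% (20.3 to 25.0) of the same thinned Tregs, which did not differ beyond counting error. In naive-like cells, Txnip was detected in 41.6% (38.4 to 44.8) and 33.8% (28.8 to 39.1) at 2000 UMIs. At 1000 UMIs, where 1007 cells labelled dKO were kept, it was detected in 26.2% (24.1 to 28.4) and 24.3% (21.7 to 27.1). These intervals overlapped at both depths. In pDC-like cells, Arrdc4 was detected in 5.49% (3.83 to 7.59) and 5.65% (4.90 to 6.47) at 2000 UMIs and in 1.82% (1.12 to 2.80) and 2.72% (2.22 to 3.29) at 1000 UMIs, with overlapping intervals at both depths. Txnip was detected there, at 2000 UMIs, in 34.2% (30.5 to 38.1) and 42.1% (40.5 to 43.8).

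Whether the 2 genes were found in the same cells was examined within classes at this depth. In Tregs labelled dKO, Arrdc4 was detected in 16.7% of 282 cells with a Txnip UMI and in 10.8% of 968 cells without one, a difference of 5.82 percentage points (1.15 to 11.0). At 1000 UMIs per cell, with 2735 cells, the shares were 7.33% and 8.25%, a difference of -0.92 points (-3.54 to 2.24). The sign thus differed between these settings, which differ in depth and in the cells kept. Without the largest clonotype the difference was 3.83 points (-0.65 to 8.89) at 2000 UMIs.

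No other large class showed a relation beyond counting error at 2000 UMIs. The difference was 2.75 points (-1.94 to 8.39) in the remaining T cells and -1.13 points (-2.68 to 0.48) in pDC-like cells of the library labelled dKO. In its naive-like cells it was -4.52 points (-9.55 to 1.57), and -1.68 points (-3.23 to 0.64) at 1000 UMIs. Over all T cells of that library the difference at 2000 UMIs was 2.35 points (-0.10 to 5.05). In the library labelled WT, 3 Tregs with Arrdc4 were too few to compare.

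Subsets of Tregs were then read within each library. Tregs passing the cycling gate (201 of 3301 in the library labelled dKO) were low in both genes. There, Arrdc4 stood at 17.03 (10.4 to 26.3) CPM with and 91.4 (83.8 to 99.5) CPM without cycling genes, a log2 ratio of -2.42 (-3.15 to -1.78). Txnip stood at 71.5 and 185 CPM, a log2 ratio of -1.37 (-1.71 to -1.05). Txnip was likewise lower in cycling Tregs labelled WT (72 of 478), at 46.0 and 172 CPM (-1.90, -2.69 to -1.20). Arrdc4 was too rare to compare there, at 3 and 8 UMIs. Median depth with and without cycling genes was 5273 and 1520 UMIs labelled dKO and 5084 and 2015 UMIs labelled WT. The part of depth and of doublets in these subset values was not tested.

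Naive-like genes were read next. Tregs labelled dKO with at least 2 naive-like genes held 36.9 CPM of Arrdc4, against 86.2 CPM in those without (-1.23, -1.74 to -0.75). Their Txnip was 159 and 168 CPM (-0.08, -0.32 to 0.16). Txnip in Tregs labelled WT stood at 159 CPM with and 122.5 CPM without these genes (0.38, -0.05 to 0.80), and Arrdc4 had 2 and 9 UMIs. Median depth with and without them was 3441 and 1505 UMIs labelled dKO and 3718 and 1829.5 UMIs labelled WT. Its part was not tested.

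Txnip was lower in Tregs with Areg or Il1rl1, genes of tissue Tregs. Tregs labelled dKO with an Areg UMI, the tissue-repair factor amphiregulin, held 127 CPM of Txnip against 198 CPM without (-0.63, -0.81 to -0.46), and those with an Il1rl1 UMI, the IL-33 receptor, held 116 against 175 CPM (-0.59, -0.88 to -0.31). The same directions were found in the library labelled WT, at -0.63 (-1.08 to -0.19) for Areg and -0.59 (-1.11 to -0.10) for Il1rl1. Arrdc4 in the library labelled dKO gave -0.08 (-0.33 to 0.17) for Areg, -0.22 (-0.61 to 0.15) for Il1rl1, 0.06 (-0.19 to 0.31) for Klrg1 and -0.10 (-0.40 to 0.19) for Il10, all with intervals that included 0. In the library labelled WT, with 11 Arrdc4 UMIs in all, it gave 1.05 (-0.92 to 3.27) for Areg and -0.29 (-2.84 to 1.77) for Il1rl1. Whether the genes differed in their relation to a marker was not tested.

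Il10+ Tregs labelled dKO held more Txnip (203 against 155 CPM; 0.39, 0.20 to 0.57), and those labelled WT stood at 75.3 against 142 CPM (-0.92, -2.15 to 0.09). Klrg1+ Tregs, an effector subset, held 186 against 150 CPM of Txnip in the library labelled dKO (0.31, 0.14 to 0.48) and 101 against 162 CPM in the library labelled WT (-0.68, -1.15 to -0.23).

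**Figure D3:**
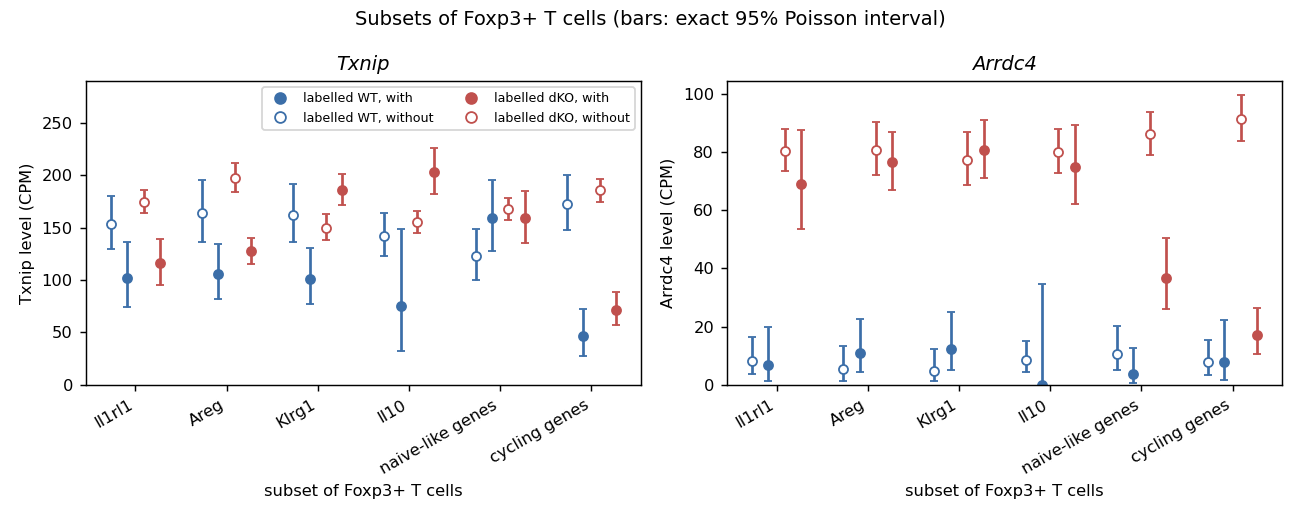
Txnip (left) and Arrdc4 (right) in CPM among Foxp3+ T cells with (filled) and without (open) a UMI of each named gene, or at least 2 naive-like or cycling genes, in the libraries labelled WT (blue) and dKO (red). Bars are exact 95% Poisson intervals. Arrdc4 in red falls from 91.4 to 17.03 CPM with cycling genes and is level with and without Areg, whereas Txnip falls from 185 to 71.5 CPM with cycling genes and from 198 to 127 CPM with Areg.

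T cells without a Foxp3 UMI can still be Tregs whose Foxp3 was not captured. The Il17+, Ifng+, naive-like and remaining T cells were therefore ordered, after the first results had been seen, by how many of 7 Treg marker genes they held (Ikzf2, Ctla4, Tigit, Il2ra, Tnfrsf4, Tnfrsf9 and Tnfrsf18). Tnfrsf9 is also on the list of activation genes read below, and the part of activation in this order was not tested. In the library labelled dKO, Arrdc4 stood at 8.35 (4.17 to 14.9) CPM in cells with none, at 11.0, 22.0, 38.8 and 83.0 CPM in cells with 1 to 4, and at 108 (98.0 to 118) CPM in the 2448 cells with 5 or more. Each bin was higher than the one before, with overlapping intervals up to 3 markers and separate ones from there on, and median depth ranged only from 1206 to 1399 UMIs. The classes within a bin differed: 9 of the 11 UMIs in cells with no marker came from naive-like cells (16.1 CPM), 2 from the remaining T cells and 0 from Ifng+ and Il17+ cells. Within the remaining T cells labelled dKO the level rose from 3.68 CPM at no marker to 115 (104 to 127) CPM at 5 or more, and within naive-like cells it ran 16.1, 11.8, 16.0, 5.19, 35.5 and 69.8 CPM, with no steady order. Bins of the library labelled WT lay between 1.24 and 5.95 CPM without order, with 1 to 9 UMIs each and 209 cells in the top bin.

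Pooled over the classes, Txnip ran the other way. It fell from 326 (296 to 358) CPM in cells labelled dKO with none of these markers to 184 (171 to 198) CPM in cells with 5 or more, and from 321 (303 to 339) to 151 (125 to 182) CPM in cells labelled WT. The bins differ in their classes, since naive-like cells, high in Txnip, were 375 of 985 cells labelled dKO at no marker and 113 of 2448 at 5 or more. Within the remaining T cells Txnip went from 248 (208 to 294) to 180 (166 to 195) CPM labelled dKO and from 220 (196 to 246) to 69.7 (40.6 to 112) CPM labelled WT. Within Ifng+ cells labelled WT it stood at 231 (196 to 269) CPM at no marker and at 269 (211 to 338) CPM at 5 or more, so the fall was not seen in every class. Median depth in the library labelled WT rose along these bins, from 1443 to 2860 UMIs, and its part in the values was not tested.

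**Figure D4:**
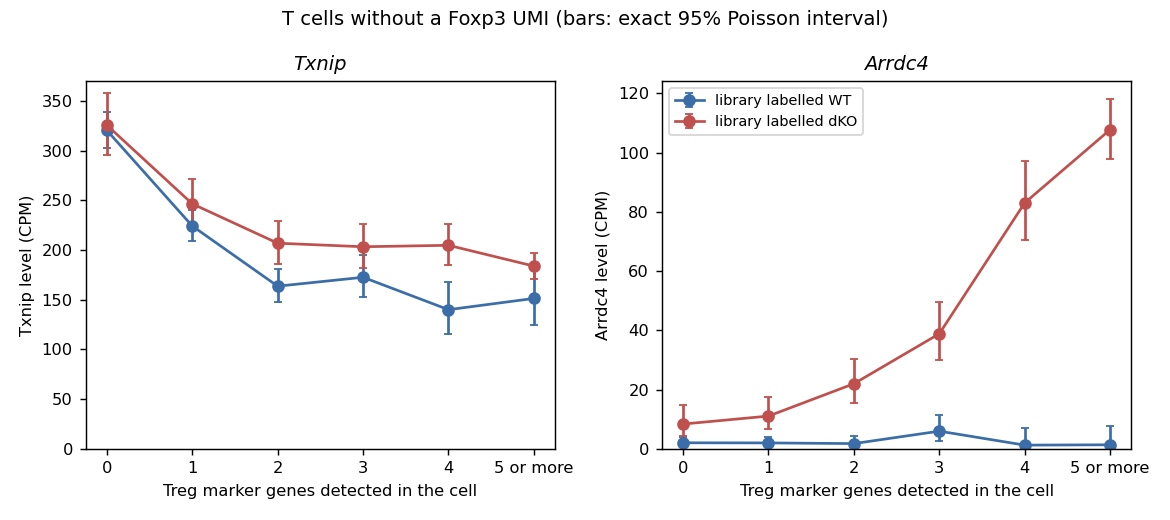
Txnip (left) and Arrdc4 (right) in CPM in T cells without a Foxp3 UMI, by the number of 7 Treg marker genes detected in the cell, for the libraries labelled WT (blue) and dKO (red) with exact 95% Poisson intervals. Arrdc4 rises from 8.35 to 108 CPM in the library labelled dKO and stays at or under 5.95 CPM in the library labelled WT, and Txnip falls from over 320 CPM in both.

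Clonotypes were read by the 10 largest T cell clones of each library. The largest T cell clone of the library labelled dKO, 246 cells of which 95 were Treg-gated, held 38 Arrdc4 UMIs, or 85.3 CPM, and 227 CPM of Txnip. Arrdc4 differed between its clones, with 121.5 CPM (11 UMIs) in the second clone, of 54 cells, and none of 102531 UMIs in the third, of 32 cells of which 3 were Tregs. The fourth clone, with 11 Tregs among 27 cells, held 6 UMIs (143 CPM), the seventh 3 UMIs (74.4 CPM) and the tenth 1 UMI (53.2 CPM). The eighth clone, with 10 Tregs among 19 cells, held none of 68283 UMIs, and the sixth, with 9 Tregs among 24 cells, held 1 UMI. The fifth and ninth, without Tregs, held 1 and 0 UMIs. Of the library labelled WT, 9 of the 10 largest clones held no Arrdc4 UMI and the other held 1, but these clones held only 0 to 2 Treg-gated cells each, so clones of the libraries are not alike and were not compared.

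Across the 22 groups of class and library, log2(CPM + 10) of the genes gave r = -0.53 and rho = -0.17. The points share 2 libraries and the value rests on the innate type 17-like groups: over the 20 groups without them r was 0.18 and rho 0.066, and over the 16 T cell groups r was 0.20 and rho 0.044. Of 10283 genes ranked by likeness over all 22 groups, the innate type 17-like ones on which r rests included, Arrdc4 stood at 9437 for Txnip and Txnip at 9392 for Arrdc4. The pattern most like that of Txnip was of Gnl3 (r = 0.89), followed by Vcpip1, Zfp146, Fam120b and Ifnar1. That most like Arrdc4 was of Snx20 (r = 0.89), with Bicd1, Sdc4 and Abhd4 also among the 5 most like it. No ranking without the innate type 17-like groups was made. In Tregs, naive-like and cycling cells labelled WT, Txnip stood at 137, 319 and 78.3 CPM. Gnl3 stood there at 44.1, 66.8 and 41.5 CPM and Vcpip1 at 47.6, 49.4 and 37.2 CPM. Sdc4, which encodes syndecan 4, stood at 49.0 and 168.5 CPM in Tregs labelled WT and dKO.

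**Figure D5:**
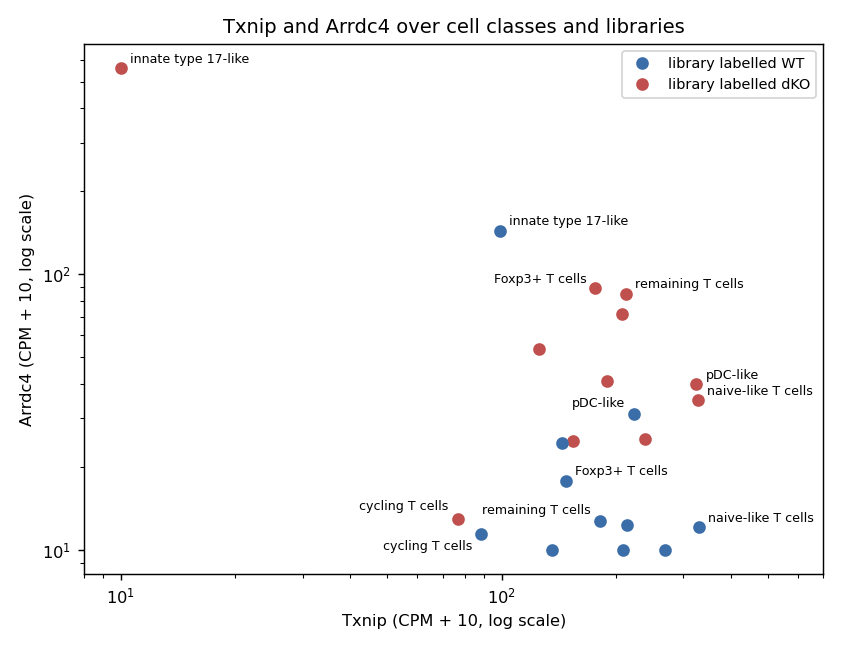
Txnip against Arrdc4 over 22 groups of cell class and library, both as CPM + 10 on log axes, with blue points for the library labelled WT and red for the library labelled dKO. The innate type 17-like points lie alone at high Arrdc4 and low Txnip, and the other points show no common trend, with naive-like cells to the right and cycling cells to the left at low Arrdc4 in both libraries.

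The wider pathway was read in Tregs from fixed lists, counting genes of at least 50 CPM. Of the other α-arrestins only Arrdc1 passed, at 51.9 and 63.5 CPM (0.29 on the log2 scale). Arrdc2 and Arrdc3 stood at 7.11 and 4.002 CPM and at 12.1 and 7.86 CPM, below the filter. None of these was at least 2-fold higher in the library labelled dKO. Of the glucose-sensing factors, Mlx stood at 54.7 and 49.0 CPM and Mlxip, which encodes MondoA, at 36.3 and 35.9 CPM, nearly equal in the libraries. Mlxipl, which encodes ChREBP, had 1 and 2 UMIs.

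The glucose uptake and glycolysis list had 14 of 19 genes measured, none at least 2-fold higher or lower, and a median log2 ratio of 0.17, against 0.00 over all genes. Slc2a1, the glucose transporter GLUT1, stood at 53.3 and 69.2 CPM (0.38, 0.02 to 0.75), Aldoa at 522 and 761 CPM, Eno1 at 205 and 124 CPM and Gapdh at 557 and 433 CPM, so single enzymes lay on both sides of 0. The thioredoxin list had 3 of 5 measured and none past 2-fold, with Txn1, the thioredoxin that TXNIP binds, at 298 and 406 CPM (0.45). Of 7 HECT-type ligases, Itch (69.0 and 63.2 CPM) and Wwp2 (61.1 and 75.2 CPM) were measured and neither passed 2-fold.

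Of 12 measured genes of quiescence and recirculation, 5 were at least 2-fold lower in Tregs labelled dKO (2.66% of all genes were), and the list's median was -0.94. Among the 5 were Tcf7 (-1.65), Lef1 (-1.40), S1pr1 (-1.36) and Btg2 (-1.21), the first 3 of them genes of naive and recirculating T cells. The other 7 included Btg1 (0.24, 0.15 to 0.32), Cdkn1b (0.021, -0.15 to 0.20) and Foxo1 (-0.12, -0.31 to 0.08). Of 8 measured activation genes, 3 were at least 2-fold higher (2.85% of all genes were), at a list median of 0.076, namely Nr4a1 (961 and 2269 CPM), Nr4a2 (163 and 413 CPM) and the costimulatory receptor Tnfrsf9 (469 and 1050 CPM), and Cd69 stood at 380 and 196 CPM.

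Within Tregs labelled dKO, cells thinned to 1000 UMIs were split by a UMI of either gene and other genes compared between the groups. With Txnip (409 cells against 2326), 7 of 14 glycolysis genes had intervals below 0 and none above, at a median log2 ratio of -0.22. Over all 3629 genes the median was 0.041, with 9.98% of intervals below 0 and 12.4% above. Among them, Ldha, lactate dehydrogenase A, stood at 550 CPM with and 748 CPM without Txnip (-0.44, -0.58 to -0.31). In the quiescence list, 5 of 10 genes lay above 0 and none below, with Lef1 at 0.60 and Btg1 at 0.25, and Txn1 stood at 323 and 428 CPM (-0.41, -0.59 to -0.23).

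With Arrdc4 (222 cells against 2513), 5 of 15 glycolysis genes lay below 0 and 1, Slc2a3, above, where 7.98% of all 3646 genes lay below and 10.4% above. The activation list had 4 of 7 genes above 0 and none below, at a median of 0.47 (0.031 over all genes). Tnfrsf9 stood at 1454 and 992 CPM (0.55, 0.43 to 0.67), Nr4a3 at 407 and 284 CPM (0.52, 0.29 to 0.74), Nr4a2 at 546 and 394 CPM and Nr4a1 at 2465 and 2222 CPM. With Txnip, by comparison, Nr4a1 stood at 1849 and 2298 CPM (-0.31, -0.39 to -0.24) and Tnfrsf9 at 941 and 1036 CPM (-0.14, -0.25 to -0.03), so these 2 genes lay on opposite sides for the arrestins, a difference that was not tested. Nr4a2 did not (0.054, -0.11 to 0.21, with Txnip and 0.47, 0.27 to 0.66, with Arrdc4), and the intervals of Egr1 included 0 in both splits (0.33 and -0.21). In the quiescence list, 1 of 9 genes lay above 0 with Arrdc4 and 3 below, at a median of -0.030, and the one above was Btg1 (1449 and 1058 CPM; 0.45, 0.34 to 0.57). Klf2, a factor of quiescent T cells, stood at 249 and 367 CPM with and without Arrdc4 (-0.56, -0.84 to -0.28) and at 405 and 352 CPM with and without Txnip (0.20, 0.04 to 0.37). Only 222 cells carried Arrdc4 and all come from a single library.

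Naive-like cells were split by Txnip in the same way. With a Txnip UMI, 3 of 10 and 4 of 11 measured glycolysis genes had intervals below 0 in the libraries labelled WT and dKO and none above, where 9.5% and 7.5% of all genes lay below. Of the quiescence genes, 6 of 13 and 5 of 12 lay above 0 and none below, where 6.69% and 5.06% of all genes lay above. Medians over all genes were -0.015 and -0.041. Ldha was lower with Txnip in both libraries, at -0.21 (-0.37 to -0.05) and -0.29 (-0.52 to -0.06), and Klf2 higher, at 0.34 (0.25 to 0.42) and 0.35 (0.23 to 0.47). Other genes differed in sign between the libraries, such as Gpi1 (0.07 and -0.35) and Il7r (0.15 and -0.011).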

How the data were processed

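Hepatic CD4+ cells were profiled by 10x 5′ single-cell RNA and TCR sequencing, 1 library per genotype. The authors deposited UMI counts per gene and cell, made with Cell Ranger 7.0.1 on mm10 per the labels and restricted to called cells, and TCR contigs with their UMI counts. The counts are not normalized. Whether counting used strand is not given in the sources used here, and the antisense gene Gm15441 (chr3:96555765-96566801, minus strand), which covers Txnip whole, stood at 7.77 and 10.7 CPM.

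From these, cells were kept that held over 200 detected genes and a mitochondrial share of UMIs under 5% (10556 of 10602 labelled WT and 17462 of 17645 labelled dKO), of which 3841 and 4897 had a TCR contig. Total kept depth was 23437516 and 37794986 UMIs. Cells were gated by markers in a fixed order, and 293 and 446 pDC or myeloid-gated cells with a TCR contig were set aside as mixed, while 614 and 582 passed no gate. No doublet caller was run, but an alternative left out cells with at least 2 TRB chains and the 5% of cells with most UMIs. Droplets sharing barcodes were kept and removed in an alternative.

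UMIs were summed per class and library and divided by the total (CPM, Poisson intervals). Ratios have conditional binomial intervals, shares Clopper-Pearson intervals and differences of shares intervals combined from these. Any limit given for a count of 0 is the level or share of 3 counts. Genes were ranked if at least 50 CPM in a library (alternatively 20) and at least 20 UMIs in sum. Promoter windows came from RefSeq. Named genes were Txnip, Arrdc4, members of 7 lists and the 5 genes most like each. Gas2, Myo1d, Tmem158 and Lag3 were named for their rank beside Arrdc4. The values of some genes of the gates, lists and rankings are not reported here. The members and lists were chosen with earlier results of these data known. The interval script was tested on simulated data. Python 3.11.15 (numpy 2.4.6, pandas 2.3.3, scipy 1.17.1, matplotlib 3.10.9) and, for TMM scaling, R 4.3.3 with edgeR 4.0.16 were used.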

Additional observations from a re-analysis of the deposited data

Results flagged for a closer look

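Klrg1+ and Klrg1- Tregs differed in Txnip in opposite directions in the 2 libraries. Txnip was 0.68 lower on the log2 scale, at -0.68 (-1.15 to -0.23), with a Klrg1 UMI in the library labelled WT (160 cells with and 318 without) and higher by 0.31 (0.14 to 0.48) in the library labelled dKO (1373 with and 1928 without). The values differ by 0.99, and with 1 library per genotype the difference was not tested. Median depth with and without a Klrg1 UMI was 3003.5 and 1979 UMIs in the library labelled WT and 1788 and 1477 UMIs in the library labelled dKO.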

How the results depend on the processing

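Arrdc4 in Tregs kept its direction under all 15 alternatives, with log2 ratios from 2.49 (1 cell per clonotype) to 4.57 (all T cells pooled). The Txnip ratio in Tregs, 0.28 as reported, was -0.42 (-0.80 to -0.022) with 1 cell per clonotype (452 and 155 cells) and -0.24 in cells with a clonotype. It was -0.051 without cells holding pDC or myeloid gate UMIs and -0.082 over all T cells. The cause of these reversals was not tested. Chosen after seeing the data were the restriction to cells with a clonotype, the removal of Tregs with pDC or myeloid UMIs or cycling genes, the gate allowing Cd3 UMIs and the binning by Treg markers. Without doublets, Tregs labelled dKO held 181.5 CPM of Txnip and 93.5 CPM of Arrdc4. Thinning to 1000 UMIs gave Txnip shares of 13.1% and 15.0% and an Arrdc4 share of 8.12% in Tregs labelled dKO, and the unthinned Txnip share there was 25.1%. These settings differ in depth and in the cells kept. At 1000 UMIs the difference in Arrdc4 share by Txnip was -0.92 points. The correlation over groups, -0.53, was 0.20 in T cell classes, 0.18 without innate type 17-like groups (chosen after seeing the data) and, taking each library alone, -0.42 (WT) and -0.64 (dKO). The Arrdc4 ratio of innate type 17-like cells, 2.04, was 1.33 (0.43 to 2.28) in 82 and 80 cells when Cd3 UMIs were allowed. No paired analysis was possible because each genotype had 1 library. Arrdc4 is least precise in the library labelled WT, where every T cell class held 13 of its UMIs or fewer, of 16812664 UMIs over all its T cells, against 20944662 labelled dKO. Mice cannot be told apart in either pool.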
